A study of Mus musculus with 30 samples.

Results

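The miR-181 family of the mouse was examined as the 6 hairpin genes Mir181a-1, Mir181a-2, Mir181b-1, Mir181b-2, Mir181c and Mir181d, out of 2202 miRNA hairpins in the GENCODE M21 annotation. Members were chosen by name, and a read was counted for a member when its whole sequence matched that hairpin exactly and in the sense direction. The libraries held small RNA of 15 to 50 nt from the cortex of 6-month-old mice, named as prefrontal cortex in the study's methods. WT mice were compared with AD mice, which carried the 5xFAD transgenes in the hemizygous state on the C57BL/6J background. These transgenes are driven by the neuronal Thy1 promoter, so the mice model amyloid production by neurons rather than the whole disease. The WT mice were littermates without the transgenes, and both sexes were used. Each genotype was sequenced with 2 protocols. Traditional-seq covered 7 WT and 7 AD libraries, with the RNA going straight to adapter ligation. PANDORA-seq covered 8 WT and 8 AD libraries, whose RNA was first treated with T4 PNK, an enzyme that converts RNA termini into ones fit for ligation, and with AlkB, which removes certain methyl groups that stop reverse transcription. The labels do not say whether libraries of both protocols came from the same mice, but the names of the deposited data share 14 codes between the protocols, covering 28 of the 30 libraries.

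A miRNA is cut out of a hairpin precursor by Drosha and Dicer, which leaves a duplex of a 5p and a 3p arm. One arm is usually retained in an Argonaute protein and guides it to messenger RNAs through its seed, the bases 2 to 8 from the 5′ end. The miR-181 family is widely expressed, is known for tuning T cell receptor signalling in the thymus, and is among the miRNAs studied in neurons and astrocytes of the brain.

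The 10 mature arms are shown because the family is defined by its shared seed and because single bases tell its members apart. The sequences are from RefSeq (GRCm38.p6) and run 5′ to 3′, with the seed in capitals.
miR-181a-5p: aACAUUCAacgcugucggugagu
miR-181b-5p: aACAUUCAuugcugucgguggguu
miR-181c-5p: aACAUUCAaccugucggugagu
miR-181d-5p: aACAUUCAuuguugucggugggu
miR-181a-1-3p: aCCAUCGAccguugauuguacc
miR-181c-3p: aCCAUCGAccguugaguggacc
miR-181a-2-3p: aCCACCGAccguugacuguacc
miR-181b-1-3p: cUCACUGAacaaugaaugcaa
miR-181b-2-3p: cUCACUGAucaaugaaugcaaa
miR-181d-3p: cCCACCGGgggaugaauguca
The 4 5p arms share 1 seed, whereas the 3p arms fall into 4 seeds, with miR-181a-1-3p and miR-181c-3p sharing one and both miR-181b 3p arms sharing another. The miR-181a-5p sequence is identical in both of its hairpins, as is that of miR-181b-5p, so reads within the mature sequence could not be assigned to a locus and were counted once. Only reads that run past it could be. The 3p arms differ between all 6 hairpins and could be assigned.

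The hairpins form 3 pairs in the genome (GRCm38). Mir181a-1 (chr1:137966455-137966541) and Mir181b-1 (chr1:137966639-137966718) lie on the plus strand with 97 bases between them, inside exons of the lincRNA A430106G13Rik. Mir181a-2 (chr2:38852735-38852810) and Mir181b-2 (chr2:38853830-38853918) also lie on the plus strand, with 1019 bases between them, within the span of Nr6a1, a nuclear receptor gene on the opposite strand. Mir181c (chr8:84178873-84178961) and Mir181d (chr8:84178716-84178787) lie on the minus strand with 85 bases between them, within the span of the same-strand gene Nanos3.

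Depth differed between the protocols. Traditional-seq libraries held 9370669 to 17053412 reads, of which 35.9% to 50.3% matched a miRNA hairpin, and PANDORA-seq libraries held 54926347 to 105876141 reads, of which 1.51% to 5.54% did. The family took 4649 to 24971 reads of a traditional-seq library and 3079 to 16144 of a PANDORA-seq library, and none of these reads also matched another annotated small RNA. Brain-typical miRNAs were abundant: the 7 of 8 neuronal marker arms that could be matched summed to medians between 1.39e+05 and 3.31e+05 CPM in the 4 groups, where CPM scales the count of an arm to the hairpin-matching reads of its library. Of 28 marker arms for neurons, glia, endothelium, blood and other tissues, 16 could be tested in traditional-seq and 15 in PANDORA-seq. Between genotypes 0 of them differed by edgeR, where 0 of all 515 and 1 of all 708 arms did. One AD PANDORA-seq library stood apart with 7149 CPM in the only matched marker of other tissues, miR-206-3p of muscle, against a group median of 81.1 CPM.

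The traditional-seq libraries fell into 2 sets. In 7 of them (3 WT and 4 AD) 35.9% to 38.5% of reads matched a hairpin, and in the other 7 (4 WT and 3 AD) 44.6% to 50.3% did. The family moved with this split. miR-181a-5p stood at 467 to 1342 CPM (median 940.1) in the first set and at 1222 to 3930 CPM (median 2372) in the second, and miR-181b-5p at 319 to 658 and 697 to 1120 CPM, without overlap. The 3p arms moved less or the other way, as miR-181b-1-3p stood at 4.94 to 11.2 CPM in the first set and at 2.25 to 5.07 CPM in the second. The split was seen in the data and is in no label, both sets held both genotypes, and its part in the results below was not tested beyond the within-set comparisons.

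**Figure D1:**
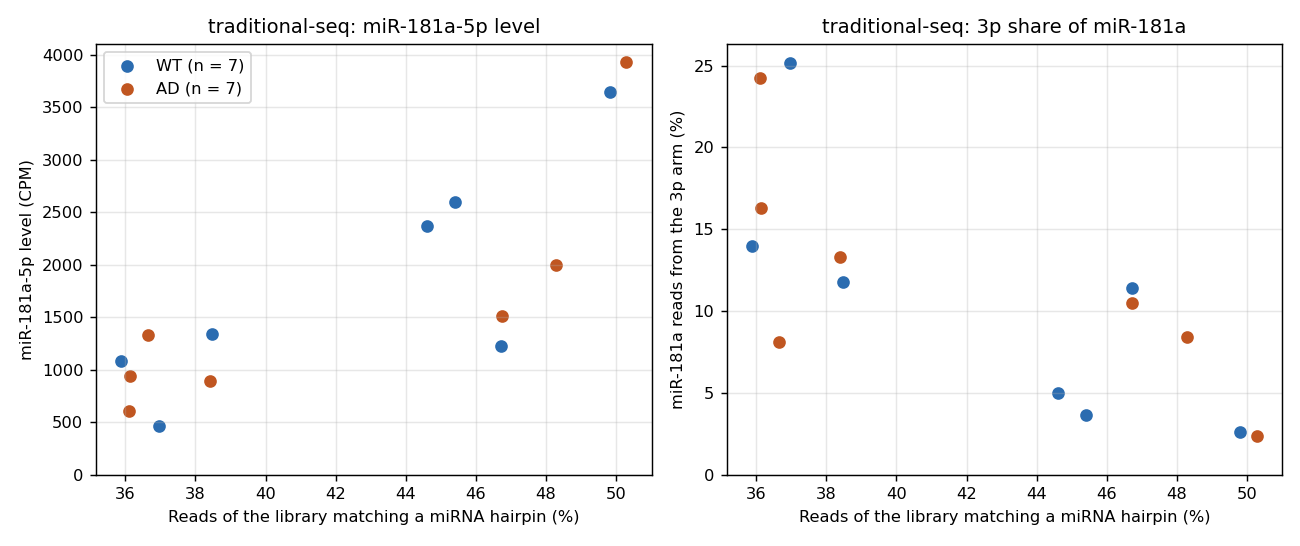
Level of miR-181a-5p (left, CPM) and share of miR-181a reads that came from a 3p arm (right, %) against the percentage of each traditional-seq library that matched a miRNA hairpin; each point is 1 of 7 WT or 7 AD libraries. The libraries at 44.6% or more held 1222 to 3930 CPM and those at 38.5% or less held 467 to 1342 CPM, with WT and AD points in both sets.

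Over all 30 libraries, miR-181a-5p gave 196453 reads, 52.1% of the 376785 family reads, followed by miR-181b-5p with 111329 and miR-181d-5p with 48655. miR-181c-5p, the remaining 5p arm, gave only 1148 reads. Among the 3p arms, miR-181a-1-3p gave 11692 reads, miR-181a-2-3p 5000, miR-181c-3p 2028, miR-181b-1-3p 408 and miR-181d-3p 53. miR-181b-2-3p was at 0 reads in 30 of 30 libraries, which allows up to 3 reads in each. The reads were thus carried by the arms with the shared seed: the 4 5p arms made up 92.4% ± 4.26 (SD, n = 14) of family reads in traditional-seq and 95.9% ± 1.197 (SD, n = 16) in PANDORA-seq.

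Levels were expressed as CPM of hairpin-matching reads after TMM scaling within each protocol, so they compare libraries of 1 protocol and not the protocols. Reads span whole small RNAs rather than fragments of a longer transcript, so arms were not divided by length. Ranks cover only tested arms whose RefSeq mature sequence was found in a hairpin, which leaves out others such as miR-124-3p. miR-181a-5p ranked 45th of 411 such arms in traditional-seq and 44th of 412 in PANDORA-seq, miR-181b-5p ranked 73rd and 48th, and miR-181d-5p 97th and 91st. In traditional-seq the order was miR-181a-5p (1709 CPM ± 1072, SD, n = 14), miR-181b-5p (711 ± 239), miR-181d-5p (382 ± 117), miR-181a-1-3p (113 ± 29.5), miR-181a-2-3p (35.2 ± 20.6), miR-181c-3p (25.96 ± 5.05), miR-181c-5p (12.4 ± 8.79) and miR-181b-1-3p (5.35 ± 2.62). The first 3 arms kept their order in 14 of 14 libraries, although the ranges of miR-181b-5p and each of the other two overlapped. miR-181a-2-3p and miR-181c-3p were not separated, since the former was higher in 8 of 14 libraries.

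In PANDORA-seq the order began in the same way, with miR-181a-5p at 2065 CPM ± 641 (SD, n = 16), miR-181b-5p at 1646 ± 335 and miR-181d-5p at 582 ± 173. miR-181a-5p exceeded miR-181b-5p in 15 of 16 libraries. miR-181a-1-3p (96.1 ± 38.4) and miR-181a-2-3p (71.3 ± 15.97) were not separated, since the former was higher in 9 of 16 libraries. Both lay above miR-181c-5p (7.35 ± 4.16), miR-181c-3p (4.61 ± 2.96), miR-181d-3p (1.64 ± 1.23) and miR-181b-1-3p (0.696 ± 0.729) without overlap, and each of these 4 low arms overlapped its neighbours in the order.

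**Figure D2:**
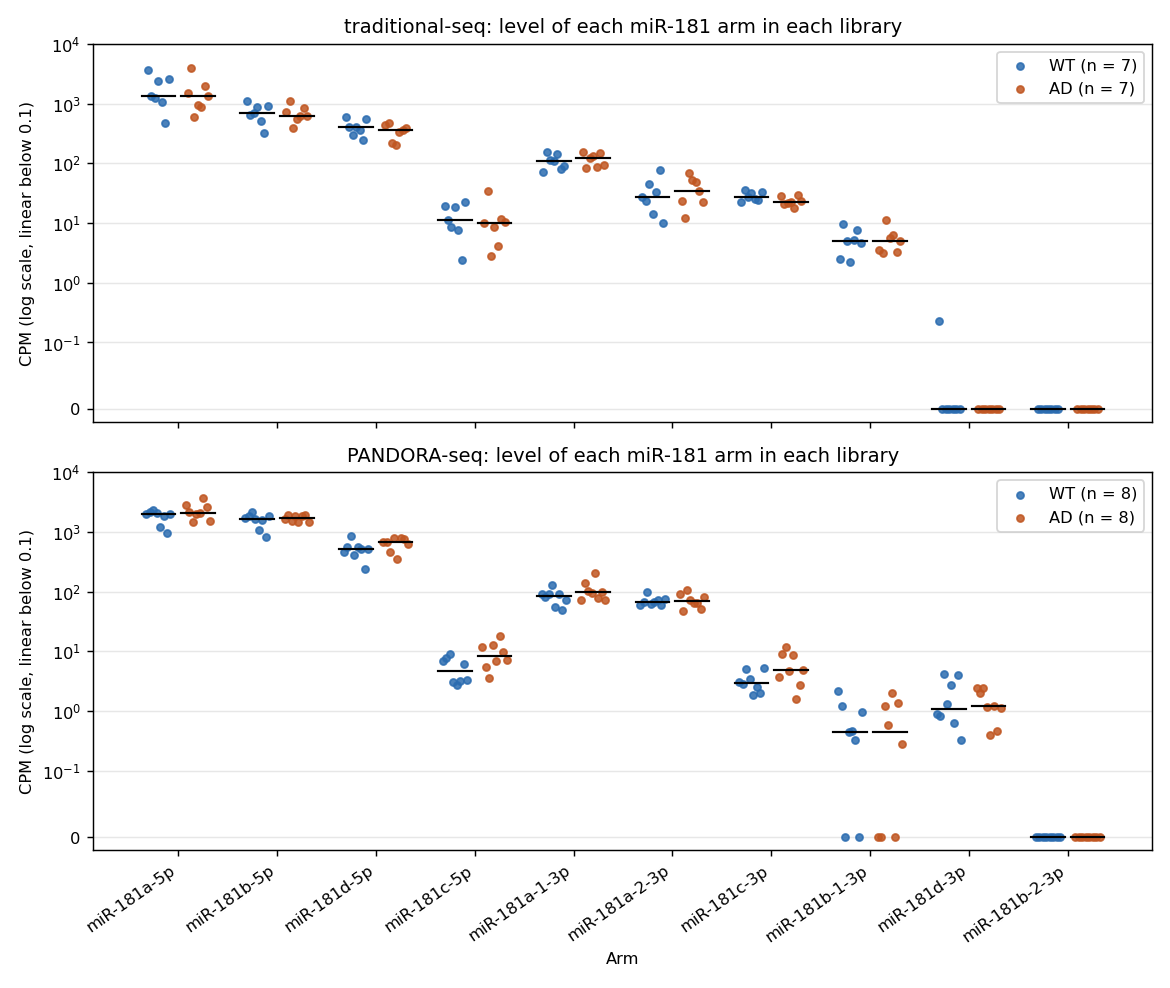
Level of each miR-181 arm (CPM on an axis that is logarithmic above 0.1 and linear below) in each traditional-seq (top) and PANDORA-seq (bottom) library; points are libraries, blue WT and orange AD, and bars are group medians. WT and AD points overlap in every arm above 0, and miR-181b-2-3p sits at 0 in all 30 libraries.

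The first question was whether the family differed between AD and WT mice in traditional-seq. Of the 10 arms, 8 had enough reads to be tested and 0 were called at an adjusted p under 0.05, where 0% of all 515 arms tested were called. None of the 8 reached an unadjusted p under 0.05 by edgeR, whereas 8 of all 515 arms did. DESeq2 and edgeR's likelihood-ratio test also called 0 of the family and 0 of all 515 arms. miR-181a-5p ranged from 467 to 3641 CPM (median 1342) in WT and from 603 to 3930 CPM (median 1328) in AD libraries, so the groups overlapped almost entirely. Its log2 fold change (AD over WT) was -0.18 (95% interval -1.13 to 0.77, adjusted p = 0.996).

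miR-181b-5p ranged from 319 to 1091 CPM (median 697) in WT and from 393 to 1120 CPM (median 621) in AD libraries, with a log2 fold change of -0.06 (SE 0.29). miR-181d-5p, the only other abundant 5p arm, ranged from 249.8 to 606 CPM (median 404) and from 204.8 to 480 CPM (median 364), with -0.24 (SE 0.26). The groups overlapped for both. miR-181c-3p showed the smallest p of the family, at 22.8 to 35.2 CPM (median 26.9) in WT and 17.7 to 29.5 CPM (median 22.8) in AD libraries, with a log2 fold change of -0.28 (SE 0.21, adjusted p = 0.996). The remaining tested arms, miR-181c-5p, miR-181a-1-3p, miR-181a-2-3p and miR-181b-1-3p, lay between -0.15 and 0.19. The median over the 8 arms was -0.10 and over all 515 arms -0.02. Within the libraries with under 40% of reads on a hairpin, and within those with over 40%, 0 family arms were called, as were 0 of all 532 and 0 of all 529 arms tested, so with 3 libraries against 4 these fits called no arm at all.

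In PANDORA-seq 6 arms could be tested, and 0 of them were called, where 0.141% of all 708 arms tested were called. All 6 fold changes were above 0, with a median of 0.32 on the log2 scale against 0.06 over all 708 arms. miR-181a-5p ranged from 948 to 2374 CPM (median 2004) in WT and from 1499 to 3681 CPM (median 2104) in AD libraries, with a log2 fold change of 0.32 (95% interval -0.19 to 0.83, adjusted p = 0.651). miR-181b-5p ranged from 816 to 2175 CPM (median 1671) and from 1481 to 1945 CPM (median 1742), with 0.12 (SE 0.21). miR-181d-5p ranged from 238 to 865 CPM (median 526) and from 354 to 786 CPM (median 682), with 0.31 (SE 0.25). The WT libraries reached lower than the AD libraries for these 3 arms, but the groups overlapped.

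miR-181c-5p had the largest fold change of the family in PANDORA-seq. It ranged from 2.75 to 9.23 CPM (median 4.67) in WT and from 3.62 to 17.8 CPM (median 8.42) in AD libraries, which overlapped, and it rested on 3 to 44 reads per library. The log2 fold change was 0.86 (SE 0.36, unadjusted p = 0.0282, adjusted p = 0.338 by edgeR). Over 27 alternatives the value stayed between 0.54 and 1.06, and its adjusted p between 0.229 and 0.862. Of all 708 arms, 83 had an unadjusted p under 0.05. The 3p arm of the same hairpin, miR-181c-3p, was too low to be tested within PANDORA-seq, at 1.83 to 5.25 CPM (median 2.98) in WT and 1.62 to 12.1 CPM (median 4.81) in AD libraries. The 2 3p arms of miR-181a were tested, with 0.39 (SE 0.28) for miR-181a-1-3p and 0.05 (SE 0.22) for miR-181a-2-3p.

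The AD effect was then compared between the protocols with an interaction term. None of the 8 tested arms was called, where 0% of all 952 arms tested were called. Of these arms, miR-181c-3p and miR-181b-1-3p were too low to be tested within PANDORA-seq and entered this fit only through traditional-seq. The smallest p in the family was that of miR-181c-3p, with a difference of 1.15 on the log2 scale (SE 0.48, unadjusted p = 0.0217, adjusted p = 0.654 by edgeR). In PANDORA-seq it rested on 4 to 22 reads per library. miR-181c-5p followed with 1.19 (SE 0.64, adjusted p = 0.932). Of all 952 arms, 59 had an unadjusted p under 0.05.

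**Figure D3:**
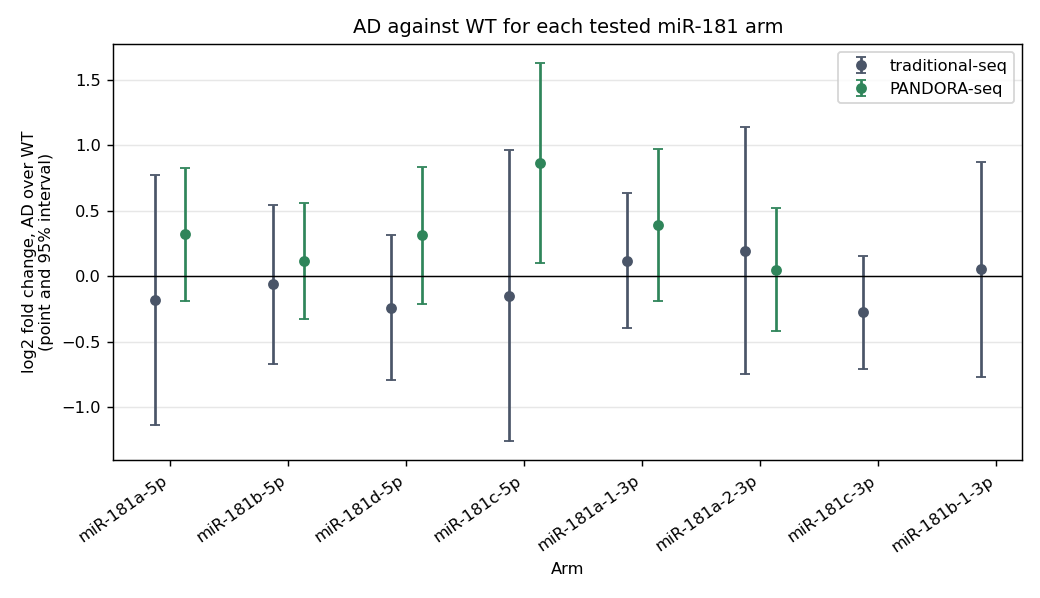
Log2 fold change of AD over WT for each tested miR-181 arm in traditional-seq (grey, 7 against 7 libraries) and PANDORA-seq (green, 8 against 8); points are edgeR estimates and bars their 95% intervals. Only the interval of miR-181c-5p in PANDORA-seq leaves out 0, and its adjusted p was 0.338.

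Within the family, 31 measures per library (shares of the arms, read lengths, read ends and loci) were compared between the genotypes by two-sided exact permutation tests. In traditional-seq 0 of 31 passed an adjusted p under 0.05, and the smallest unadjusted p was 0.0763, for the share of miR-181d-5p reads of 23 nt, at 30.5% ± 3.01 (SD, n = 7) in WT and 34.9% ± 5.07 (SD, n = 7) in AD libraries (exact permutation test). In PANDORA-seq 0 of 31 passed and 2 had an unadjusted p under 0.05. Reads of miR-181b-5p with a non-templated A or T end made up 4.43% to 6.30% (median 5.83%) in WT and 3.27% to 5.78% (median 4.37%) in AD libraries (exact permutation p = 0.0103, adjusted p = 0.318). Reads of miR-181a-5p that began at the annotated first base made up 99.4% ± 0.238 (SD, n = 8) in WT and 99.0% ± 0.407 (SD, n = 8) in AD libraries (exact permutation p = 0.0479, adjusted p = 0.742). None of the 4 3p shares passed in either protocol. The 3p share of miR-181a was 10.51% ± 7.84 (SD, n = 7) in WT and 11.9% ± 6.99 (SD, n = 7) in AD libraries by traditional-seq, and 7.96% ± 1.35 (SD, n = 8) and 7.96% ± 3.04 (SD, n = 8) by PANDORA-seq. That of miR-181d in PANDORA-seq was 0.434% ± 0.523 (SD, n = 8) in WT and 0.228% ± 0.149 (SD, n = 8) in AD libraries (exact permutation p = 0.356, adjusted p = 0.98).

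The protocols differed far more than the genotypes. In RPM, scaled as CPM but over all reads of the library, the family stood at 416 to 2413 (median 1298) in traditional-seq and at 51.9 to 211 (median 125.6) in PANDORA-seq, where most reads matched no hairpin. Among hairpin-matching reads its share was 0.112% to 0.480% (median 0.301%) in traditional-seq and 0.257% to 0.576% (median 0.465%) in PANDORA-seq, and these ranges overlapped.

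In the fit over all 30 libraries, 6 of 8 tested arms were called lower and 0 higher in PANDORA-seq, where 87.6% of all 952 arms tested were called, 58.5% higher and 29.1% lower. Of the 544 arms with a RefSeq mature sequence, 238 were called lower and 208 higher. miR-181b-1-3p, at 0 to 5 reads per PANDORA-seq library, entered this fit only through traditional-seq, where it was higher. miR-181c-3p, at 4 to 22 reads, was also too low to be tested within PANDORA-seq. miR-181d-3p, with 52 reads in PANDORA-seq and 1 in traditional-seq, was filtered out, so the count of 0 higher leaves it out. The log2 fold change (PANDORA-seq over traditional-seq) was -4.21 (SE 0.41) for miR-181b-1-3p, -3.94 (SE 0.27) for miR-181c-3p, -2.14 (SE 0.34) for miR-181c-5p and -1.65 (SE 0.21) for miR-181a-1-3p, and these 4 kept their sign under all 5 scalings tried, although miR-181a-1-3p ran from -4.24 to -0.26 and was not called by library size alone (adjusted p = 0.317). miR-181a-5p (-1.09, SE 0.25) and miR-181d-5p (-0.76, SE 0.20) were also called lower but turned positive when library size alone was used. miR-181a-2-3p (-0.32, SE 0.24) and miR-181b-5p (-0.16, SE 0.19) were not called and changed sign with the scaling. With library size alone, miR-181a-2-3p (1.04), miR-181b-5p (1.205) and miR-181d-5p (0.56) were called higher and 3 arms lower, where 845 of all 952 arms were called. With all reads of a library as its size all 8 were called lower, where 846 of all 948 arms were called. miR-181a-2-3p and miR-181b-5p were also called lower when any 1 PANDORA-seq library other than WT replicate 6 or AD replicate 1 was left out, with values down to -0.80 and -0.62. With at most 1 mismatch allowed both were called lower, at -1.01 and -0.72 (adjusted p = 0.000394 and 0.0006 by edgeR). All 8 family arms were called there, where 1279 of all 1411 arms were called. The 6 calls had adjusted p-values between 1.66e-15 and 0.000784 (edgeR). Within the WT libraries alone 6 family arms were called, where 604 of all 732 arms tested were called. These were not the same 6 arms, as miR-181b-5p was among them (-0.64, adjusted p = 0.0404 by edgeR). miR-181b-1-3p was not tested within either genotype alone. Within the AD libraries alone 3 arms were called, where 82% of all 748 arms tested were called. There miR-181a-5p and miR-181d-5p lost their calls (adjusted p = 0.0853 and 0.301 by edgeR).

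The fold changes are relative, since the median over all 952 arms was 1.58 on the log2 scale. This median joined 544 arms with a RefSeq mature sequence, at -0.29, and 408 hairpin parts without one, at 4.55. All 8 family arms lay below the median of all arms, which the hairpin parts raise. A change of scaling moves all arms largely together, so the same order under the 5 scalings is no further support. Against the median of the mature arms, miR-181b-5p stood at 0.13 and miR-181a-2-3p at -0.03, whereas miR-181c-3p stood at -3.65 and miR-181b-1-3p at -3.92. Protocol, depth and any difference in sequencing run cannot be told apart here.

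The make-up of the family did not depend on this scaling, and 26 of the 31 measures differed between the protocols, 6 of them higher and 20 lower in PANDORA-seq (two-sided permutation tests with 100000 shuffles, adjusted over 31 measures, with libraries treated as independent although codes are shared between the protocols). For each 5p arm, 1 measure was the share of reads of its commonest length. That length was picked over these same libraries, so a protocol difference in it is not an independent result. The share of miR-181b-5p among family reads rose from 24.9% ± 3.27 (SD, n = 14) to 37.2% ± 3.31 (SD, n = 16), with a permutation p of 1e-05, the smallest these shuffles can give. That of miR-181a-5p fell from 53.3% ± 9.12 (SD, n = 14) to 45.6% ± 4.62 (SD, n = 16; adjusted permutation p = 0.00748). With at most 1 mismatch allowed, the difference of miR-181a-5p lost its call (adjusted permutation p = 0.081). The share of miR-181d-5p was 13.8% ± 3.32 (SD, n = 14) and 13.02% ± 2.68 (SD, n = 16) and did not pass (adjusted permutation p = 0.51).

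The share of 3p reads differed strongly between the miRNAs. miR-181c was the only one whose 3p arm made up most reads in traditional-seq, at 37.6% to 91.2% (median 73.4%), against 8.33% to 76.9% (median 37.7%) in PANDORA-seq (adjusted permutation p = 6.53e-05). For miR-181b the 3p share was 0.944% ± 0.774 (SD, n = 14) and 0.0424% ± 0.0444 (SD, n = 16), without overlap. Of the 26 PANDORA-seq reads counted as miR-181b-1-3p, 22 were 26 nt or more, against 15 of 382 in traditional-seq. The most frequent, of 36 nt, began 16 bases before the annotated end. The PANDORA-seq level, share and fold change of this arm thus rest mostly on reads longer than the mature sequence. All 382 traditional-seq reads of a miR-181b 3p arm came from Mir181b-1. For miR-181d it went the other way, from 0.00266% ± 0.00994 (SD, n = 14), which is 1 read in 14 libraries, to 0.331% ± 0.387 (SD, n = 16), which is 52 reads. Every miR-181d-3p sequence among the 3 most frequent began 1 base inside the annotated end. For miR-181a the share was 11.2% ± 7.17 (SD, n = 14) and 7.96% ± 2.27 (SD, n = 16) and did not pass (adjusted permutation p = 0.108). Its direction depended on the set of traditional-seq libraries, since the median was 13.97% in those with under 40% of reads on a hairpin and 4.99% in those with over 40%, against 7.91% in PANDORA-seq. Its 3p arms separate the loci: Mir181a-1 gave 77.0% ± 11.4 (SD, n = 14) of miR-181a 3p reads in traditional-seq and 56.1% ± 10.4 (SD, n = 16) in PANDORA-seq (adjusted permutation p = 6.53e-05).

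Read length differed as well. Frequent forms of the 2 most abundant arms are printed as read (DNA letters, seed in capitals) because they differ only at the 3′ end.
miR-181a-5p, traditional-seq, 21 nt: aACATTCAacgctgtcggtga
miR-181a-5p, traditional-seq, 23 nt: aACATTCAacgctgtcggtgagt
miR-181a-5p, PANDORA-seq, 22 nt: aACATTCAacgctgtcggtgag
miR-181a-5p, PANDORA-seq, 19 nt: aACATTCAacgctgtcggt
miR-181b-5p, traditional-seq, 20 nt: aACATTCAttgctgtcggtg
miR-181b-5p, traditional-seq, 19 nt: aACATTCAttgctgtcggt
miR-181b-5p, traditional-seq, 23 nt: aACATTCAttgctgtcggtgggt
miR-181b-5p, PANDORA-seq, 22 nt: aACATTCAttgctgtcggtggg
The 21-nt form made up 43.0% ± 6.75 (SD, n = 14) and the annotated 23-nt form 24.0% ± 4.02 (SD, n = 14) of miR-181a-5p reads in traditional-seq. A form that ends in A or T, as both of these do, cannot be told apart from the next shorter form with that base added. In PANDORA-seq the 22-nt form made up 53.1% ± 2.59 (SD, n = 16) and the 19-nt form 21.7% ± 2.96 (SD, n = 16). Reads of 21 nt fell to 6.28% ± 0.976 (SD, n = 16) there, and the ranges of the protocols did not overlap. This length was taken as the commonest of the arm over the same 30 libraries, so the fall is not an independent result. For miR-181b-5p the 20-nt form led traditional-seq with 24.4% ± 3.61 (SD, n = 14), before the 19-nt form with 21.4% ± 5.75 (SD, n = 14), and the 22-nt form led PANDORA-seq with 32.8% ± 3.74 (SD, n = 16).

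Most reads of each 5p arm began at the annotated first base in both protocols. Such reads made up 99.7% ± 0.219 (SD, n = 14) and 99.2% ± 0.372 (SD, n = 16) of miR-181a-5p, and 99.4% ± 0.24 (SD, n = 14) and 97.8% ± 0.523 (SD, n = 16) of miR-181b-5p. The differences, though below 2 percentage points, passed the test (adjusted permutation p = 7.75e-05 and 1.82e-05). For miR-181d-5p they made up 99.6% ± 0.222 (SD, n = 14) and 99.01% ± 0.67 (SD, n = 16; adjusted permutation p = 0.000177). For miR-181c-5p, with few reads, they fell from 98.4% ± 2.2 (SD, n = 14) to 92.5% ± 8.25 (SD, n = 16), with 76.2% in the lowest PANDORA-seq library (adjusted permutation p = 0.0162). The mean length of miR-181a-5p was 21.35 nt ± 0.16 (SD, n = 14) and 21.02 nt ± 0.054 (SD, n = 16), while that of miR-181b-5p rose from 20.97 nt ± 0.22 (SD, n = 14) to 22.14 nt ± 0.31 (SD, n = 16) without overlap. These means include reads of 26 nt or more, a median of 9.89% of miR-181b-5p reads in PANDORA-seq.

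Shorter reads in PANDORA-seq were general among miRNAs. Of the 146 mature arms with at least 50 reads in every library, 134 had a shorter mean in PANDORA-seq, with a median difference of -0.87 nt, and the commonest length was 1 nt shorter in 106 of them (72.6%). Within the family the commonest length dropped by 1 nt for miR-181c-5p (22 to 21 nt), miR-181d-5p (23 to 22 nt) and miR-181a-1-3p (22 to 21 nt). It rose for miR-181a-5p (21 to 22 nt) and miR-181b-5p (20 to 22 nt) and was 21 nt in both protocols for miR-181a-2-3p and miR-181c-3p. Reads of miR-181a-2-3p still became shorter, as 22 nt fell from 42.3% to 4.22% on average and 20 nt rose from 2.34% to 37.6%. For miR-181c-3p, with 159 PANDORA-seq reads, 22 nt fell from 48.5% to 2.92% and 20 nt rose from 1.35% to 42.4%. miR-181b-1-3p, with 26 reads in PANDORA-seq, and miR-181d-3p, with 1 read in traditional-seq, had too few reads for a commonest length in both protocols. Ordered from the most shortened arm, miR-181b-5p ranked 142nd, miR-181d-5p 139th and miR-181a-1-3p 137th of the 146, so the means of these 3 were among the 12 that were not shorter. The means count reads of all lengths, and reads of 26 nt or more made up 7.99% of miR-181b-5p and 9.75% of miR-181a-1-3p reads in PANDORA-seq. For miR-181d-5p they made up 0.102%. The 22-nt reads of miR-181a-1-3p fell from 67.3% to 1.26% on average and its 21-nt reads rose from 24.3% to 68.6%, so its main form was shorter.

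**Figure D4:**
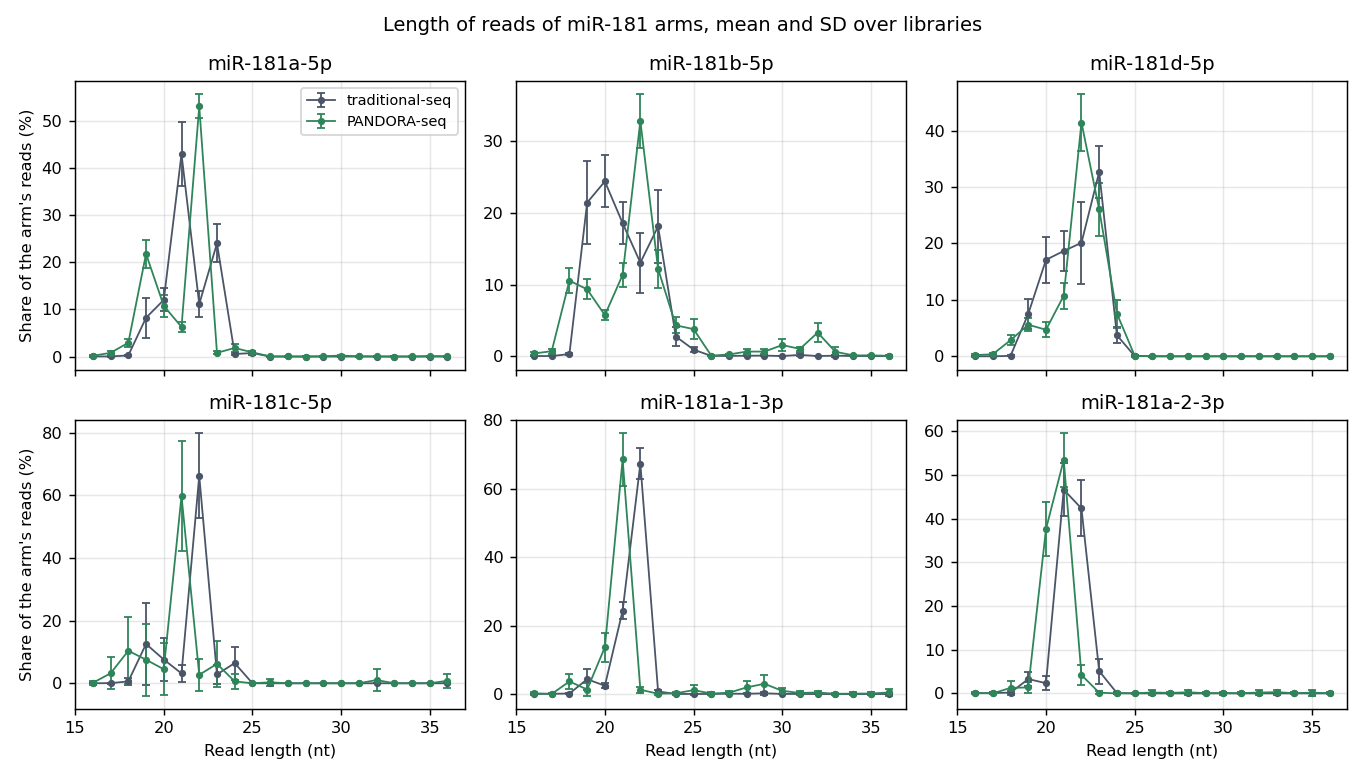
Share of an arm's reads (%) at each read length (nt) for 6 miR-181 arms in traditional-seq (grey, n = 14) and PANDORA-seq (green, n = 16); points are means over libraries and bars SDs. The peak of miR-181a-5p moves from 21 to 22 nt and that of miR-181b-5p from 20 to 22 nt, with a further set of miR-181b-5p reads near 30 to 32 nt in PANDORA-seq.

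Non-templated ends were frequent in traditional-seq. These are reads whose first 18 or more bases match the hairpin and which then end in 1 to 3 A or T bases that do not. These reads match no hairpin in full and are in none of the counts above, so their share is given over the sum of an arm's exactly matching and non-templated reads. They made up 20.3% ± 4.81 (SD, n = 14) of miR-181a-5p reads, 31.4% ± 6.80 (SD, n = 14) of miR-181b-5p, 22.1% ± 7.44 (SD, n = 14) of miR-181c-5p and 29.7% ± 7.80 (SD, n = 14) of miR-181d-5p. In PANDORA-seq the shares were 0.670% ± 0.248, 5.08% ± 0.897, 0.739% ± 1.67 and 7.53% ± 2.31 (SD, n = 16). The protocols did not overlap for any of the 4 arms (adjusted permutation p = 1.82e-05 each). The same held for miRNAs in general, as the median share over the 146 arms was 19.3% in traditional-seq and 1.79% in PANDORA-seq, and 142 of 146 arms were lower.

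**Figure D5:**
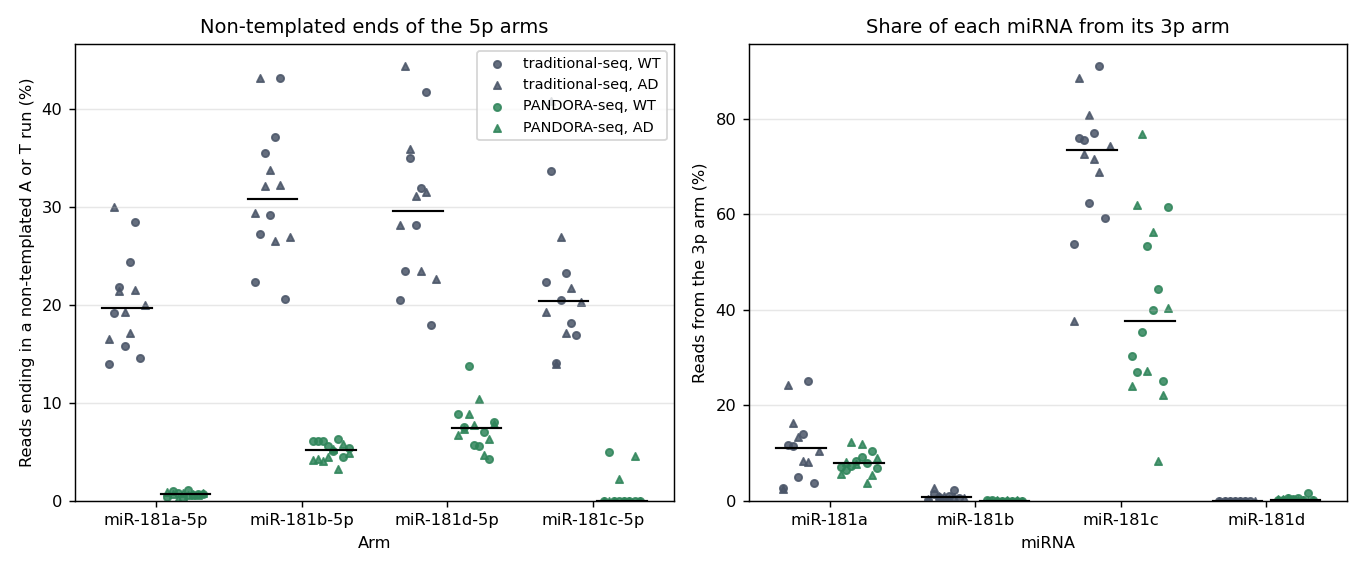
Left, reads ending in a non-templated run of A or T (%) for the 4 5p arms. Right, share of each miRNA's reads that came from its 3p arm (%). Points are libraries (grey traditional-seq, green PANDORA-seq, circles WT, triangles AD) and bars medians over the libraries of a protocol. Non-templated ends are lower in PANDORA-seq for every 5p arm, and only miR-181c in traditional-seq has a median 3p share, 73.4%, above that of its 5p arm.

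PANDORA-seq also held miR-181b-5p reads that ran past the mature end into the loop. This measure was chosen after the reads were seen, so it is given without a test. Reads of 26 nt or more made up 3.36% to 12.0% (median 9.89%) of miR-181b-5p reads in the 16 PANDORA-seq libraries and 0.0203% to 1.097% (median 0.322%) in the 14 traditional-seq libraries. In number they were 4854 of 60717 and 162 of 50612 reads. The most frequent are shown because the bases past the mature end belong to 1 of the 2 miR-181b hairpins.
miR-181b-5p, 30 nt: aACATTCAttgctgtcggtgggttgaactg
miR-181b-5p, 31 nt: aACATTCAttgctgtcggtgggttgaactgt
miR-181b-5p, 32 nt: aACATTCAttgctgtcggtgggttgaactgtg
They gave 838, 567 and 1825 reads in PANDORA-seq, each in 16 of 16 libraries. Of the long PANDORA-seq reads, 4819 matched Mir181b-1 and 35 matched Mir181b-2. The shorter reads that named a locus leaned the other way, with 2185 for Mir181b-2 and 109 for Mir181b-1, of which 2146 were a 25-nt form of Mir181b-2. That form is the mature sequence with 1 more T, so it cannot be told apart from a T added to the sequence that both hairpins share.

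Long reads were not particular to miR-181b-5p. With 7.99% in PANDORA-seq it ranked 9th of the 146 arms, next to miR-181a-1-3p, which ranked 8th with 9.75% (344 of 3530 reads). miR-181b-1-3p, with too few reads to be ranked, held 22 long reads among 26 in PANDORA-seq. The other abundant 5p arms held few, with 0.497% of miR-181a-5p and 0.102% of miR-181d-5p reads, against a median of 0.131% over the 146 arms. WT and AD libraries overlapped, with a median share of long miR-181b-5p reads of 9.34% in WT (4.63% to 11.5%) and 10.1% in AD libraries (3.36% to 12.0%).

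Arms that followed miR-181a-5p across libraries were listed as a description. In traditional-seq the closest of 177 arms outside the family with a mean of at least 100 CPM were miR-872-5p (Pearson r = 0.97 on log2 CPM), miR-22-5p (0.96) and miR-24-3p (0.95), while within the family miR-181b-5p stood at 0.97, miR-181d-5p at 0.84 and miR-181a-1-3p at -0.23 (n = 14 libraries). These values share the split of the traditional-seq libraries into 2 sets. In PANDORA-seq the closest of 241 arms outside the family were miR-9-3p (0.80), miR-30c-5p (0.77) and the 3′ side of the Mir124a hairpins (0.76), while miR-181b-5p stood at 0.82 and miR-181d-5p at 0.66 (n = 16 libraries). The medians over the arms outside the family were -0.11 and 0.07.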

How the data were processed

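Small RNA was measured in 30 libraries, 7 WT and 7 AD by traditional-seq and 8 WT and 8 AD by PANDORA-seq. The deposited files list adapter-trimmed distinct sequences with their read counts as the authors made them, without normalization. The submitters' processing notes name build mm39, and no coordinates in that build were used. The study itself annotated reads with SPORTS1.1. The number of columns without a sample was 0.

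Counts were rebuilt here by matching whole reads, exactly and in the sense direction, to the GENCODE M21 (GRCm38) hairpins with a program compiled by g++ 11.4.0. A read was given to a mature arm (RefSeq, GRCm38.p6; found in 1018 of 2202 hairpins) when it overlapped it by at least 10 nt, and otherwise to a part of the hairpin. Genotypes were compared with edgeR 4.0.16 (R 4.3.3; TMM, filterByExpr with a smallest count of 10 and total of 15, quasi-likelihood test), with Benjamini-Hochberg adjustment over all arms and a call at an adjusted p under 0.05. SEs were taken from the log2 fold change and its test statistic. Measures within the family were compared by permutation over libraries (Python 3.11.15, numpy 2.4.6). Figures used matplotlib 3.10.9. The fits were tested on simulated data.

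All 6 genes and their arms were named, and outside the family the 3 arms most correlated with miR-181a-5p in each protocol and fixed marker lists. Members and lists were chosen with earlier results of these data known. Alternatives were DESeq2 1.42.0, the likelihood-ratio test, other scalings and filters, at most 1 mismatch, reads of 18 to 25 nt, replicate blocks, and leaving out each library. The study gives its n as mice, and the labels number the replicates without tying a library to an animal. Read counts hold no molecular identifiers, so counting limits cover counting error only. No 2 libraries of the same genotype and protocol were the same within sampling noise (chi-square per degree of freedom of at least 132). Pairs across groups were not compared.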

Additional observations from a re-analysis of the deposited data

Results flagged for a closer look

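Among 106 groups checked, 14 held a library whose gap to its nearest neighbour was large for the range of its group. Chance alone gives this in about 1 group in 20 when groups are independent and values continuous. Levels and shares here reuse the same reads, and a group with a single library above 0 is always flagged. The 14 can therefore not be set against that rate. In the AD traditional-seq group, replicate 2 stood highest in miR-181a-5p (3930 CPM, next 2000 CPM) and in miR-181c-5p (34.4 CPM, next 11.7 CPM), and lowest in the 3p share of miR-181c (37.6%, next 68.9%). Replicate 3 of that group stood highest in miR-181b-1-3p (11.2 CPM, next 6.42 CPM), in the 3p share of miR-181b (2.77%, next 1.02%) and in non-templated ends of miR-181a-5p (29.9%, next 21.5%). Replicate 5 had the shortest miR-181c-5p reads (mean 20.05 nt, next 21.62 nt).

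In the WT traditional-seq group, replicate 1 held the only miR-181d-3p read, which gave 0.225 CPM and a 3p share of miR-181d of 0.0372%. In the WT PANDORA-seq group, replicate 3 stood highest in miR-181a-2-3p (97.3 CPM, next 74.5 CPM), replicate 7 in the share of miR-181c-5p among family reads (0.285%, next 0.166%) and in the 3p share of miR-181d (1.67%, next 0.487%), and replicate 2 in non-templated ends of miR-181c-5p (5.0%, the others 0%). In the AD PANDORA-seq group, replicate 3 stood lowest in non-templated ends of miR-181a-5p (0.161%, next 0.601%).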

How the results depend on the processing

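The count of called family arms stayed at 0 under every alternative run for AD against WT in either protocol and for the interaction. Over all arms these alternatives called 0 in traditional-seq, 0 to 4 in PANDORA-seq and 0 to 1 in the interaction. With the replicate number as a block it was also 0 in both protocols, with miR-181c-5p in PANDORA-seq at 0.87 (adjusted p = 0.862). The replicate block within genotype called 8 family arms between the protocols (806 of 937 arms in all), and a block by file-name code (28 libraries) called 6 (811 of 935). Libraries with the same code correlated at -0.15 to 0.36 in 14 pairs. As the protocols capture RNA differently, this cannot show whether a code marks the same mouse. The codes were not taken as pairs because the labels do not tie them to mice. Within the WT libraries alone, the protocol count was 6 (604 of 732 arms in all), with miR-181b-5p called and miR-181b-1-3p not tested. Between the protocols the count was 3 in the AD libraries alone (613 of 748) and 6 to 8 with 1 library left out (816 to 870 arms in all). It was 8 with at most 1 mismatch (1279 of 1411). It was 7 with a loose filter (1787 of 2223) and without reads matching other small RNAs (731 of 822). It was 5 with DESeq2 size factors in edgeR (837 of 952), for reads of 18 to 25 nt (606 of 708) and with a fold change over 2 (768 of 952), and miR-181d-5p lost its call in each of these 3. Of the 31 measures, 26 differed between the protocols with at most 1 mismatch, without the share of miR-181a-5p and the mean length of miR-181d-5p (adjusted permutation p = 0.081 and 0.333), and 25 did for reads of 18 to 25 nt and on a logit scale. The cause of these changes was not tested. Same-numbered WT and AD libraries did not deviate together (correlations of -0.52 to 0.57 in 7 pairs and -0.52 to 0.44 in 8), so the numbers were not taken as pairs.

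In RPM of all reads, the family averaged 1361 (WT) and 1243 (AD) in traditional-seq and 111 (WT) and 138.6 (AD) in PANDORA-seq.

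Directions of uncalled genotype values turned near 0 (log2). In traditional-seq miR-181b-1-3p was -0.10 by library size alone and -0.12 by all reads, and miR-181b-5p 0.0040 with a loose filter and 0.00066 with 1 mismatch. In libraries under 40% on hairpins, which were split after seeing the data, miR-181a-1-3p was -0.19, miR-181b-5p 0.13 and miR-181b-1-3p -0.069. In those over 40%, miR-181a-5p was 0.0078, miR-181a-2-3p -0.059, miR-181b-1-3p -0.14 and miR-181c-5p 0.085. In PANDORA-seq miR-181a-2-3p was -0.20 and miR-181b-5p -0.092 by library size alone, and miR-181a-2-3p was -0.027 with a loose filter, -0.054 for 18 to 25 nt, -0.017 with 1 mismatch and -0.0080 without reads matching other small RNAs. In the interaction miR-181b-5p was -0.014 by library size alone and miR-181b-1-3p 0.032 by all reads.

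Between the protocols, library size alone gave 0.28 (miR-181a-5p), 1.04 (miR-181a-2-3p), 1.205 (miR-181b-5p) and 0.56 (miR-181d-5p). miR-181a-2-3p and miR-181b-5p were 0.073 and 0.21 with DESeq2, 0.074 and 0.21 with its size factors in edgeR, and 0.092 and 0.16 for 18 to 25 nt, and miR-181b-5p was 0.11 in AD libraries.

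With 1 library left out, traditional-seq values ranged from -0.59 to 0.089 (miR-181a-5p), -0.023 to 0.59 (miR-181a-2-3p), -0.22 to 0.069 (miR-181b-5p), -0.23 to 0.30 (miR-181b-1-3p) and -0.71 to 0.051 (miR-181c-5p), and miR-181a-2-3p in PANDORA-seq from -0.10 to 0.13. The interaction ranged from -0.0064 to 0.48 (miR-181a-1-3p), -0.43 to 0.084 (miR-181a-2-3p) and -0.76 to 0.17 (miR-181b-1-3p). Between the protocols miR-181a-2-3p (-0.80 to -0.19) and miR-181b-5p (-0.62 to -0.10) were each called in 14 of 30 such fits. Arms with under 50 reads per library, such as miR-181c-5p in PANDORA-seq, rest on few reads.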
